A study of Mus musculus with 6 samples.

Results

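Sox17, Foxa1, Foxa2, Foxa3, Cxcr4, Hnf4a, Sox7 and Trh, 8 genes used as markers of definitive endoderm or its neighbours, were followed in mouse cells sorted for a paraxial mesoderm reporter. They were found by gene symbol in the array's annotation, which gave 13 of the 45101 probe sets and 8 of the 18193 named genes. Foxa2 had a lower signal at day 4 than at day 3, by 2.03-fold. Sox17 was lower by 3.82-fold on its brighter probe set, a call lost without 1 of the day 3 arrays, and its other probe set changed by -0.43 on the log2 scale and was not called. None of the 8 genes was called higher at day 4 in the main fit. Cxcr4 and Trh were called higher without the array with the weakest 5′ control signals, and when replicate number was added to the fit. Sox7 lay under the detection limit used here on all 6 arrays.

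Mouse embryonic stem cells of the E14 line, of the 129P2/OlaHsd background and carrying an Msgn1-Venus reporter (Msgn1RepV), were differentiated on gelatin in a DMEM-based medium. The medium held 15% fetal bovine serum, 0.5% DMSO, 10 ng/mL R-spondin3, which strengthens Wnt signalling, and 200 ng/mL Noggin, which blocks BMP ligands. Cells positive for Venus were sorted after 3 and after 4 days, with 3 biological replicates a day and 1 Affymetrix array for each. Both days thus shared cell line, reporter, medium and gate, and differed in the day. The gate rests on Msgn1, a gene of presomitic mesoderm, and neither Venus-negative nor undifferentiated cells were analysed here. The labels do not say whether the reporter line is 1 clone.

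Definitive endoderm forms at gastrulation, when high Nodal signalling in the anterior primitive streak drives cells to express Sox17 and Foxa2 and to enter the outer layer that becomes the gut. Presomitic mesoderm also comes from the primitive streak, under Wnt and FGF signals, and cells of the early streak express Eomes and Mixl1. Sox17 and Sox7 belong to the SoxF group of HMG box factors, Foxa1, Foxa2 and Foxa3 are forkhead factors that open chromatin in endoderm, and Hnf4a is a nuclear receptor of liver, gut and visceral endoderm. Cxcr4 is the receptor of the chemokine Cxcl12 and is widely used to sort definitive endoderm, although mesoderm also expresses it. Trh encodes the precursor of thyrotropin-releasing hormone and marks early definitive endoderm in the mouse embryo.

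Start regions of Foxa1 and Foxa2 are shown because forkhead factors bind TGTTTAC-like sites and the arrays measured the transcripts of all 3 FoxA genes. RefSeq start windows (GRCm38.p6), cut to the 250 bases before the start, were found for 6 of the 8 genes, 9 windows in all, and for neither Sox17 nor Sox7. On either strand, TGTTTAC stood in 1 of these windows, that of Foxa1, and in 3.17% of 32851 windows of the same length. The shorter TGTTTG, which shares the first 5 letters of TGTTTAC, stood in 4 of the 9 windows (Cxcr4, 2 of the 3 windows of Foxa2, and Hnf4a) and in 16.0% of all windows. Neither TGTTTAC nor TGTTTG stood in the Foxa3 window, which is not shown. The Foxa2 window below lies at chr2:148046970-148047219 on the minus strand, just before the outermost start of the gene. Of the Foxa1 window, which lies inside the gene's annotated span, 30 bases are given, at chr12:57546235-57546264 on the minus strand. Both read 5′ to 3′, and capitals mark the matched letters, which begin 173 bases before the Foxa2 start and 141 bases before the Foxa1 start.
Foxa2: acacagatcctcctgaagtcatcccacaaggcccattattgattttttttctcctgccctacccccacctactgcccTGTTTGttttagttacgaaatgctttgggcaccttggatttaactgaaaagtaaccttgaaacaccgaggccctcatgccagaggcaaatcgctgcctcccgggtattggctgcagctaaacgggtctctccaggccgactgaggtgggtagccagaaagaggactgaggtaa
Foxa1: ttatactgctttGTAAACAaagtgagggcc
The SOX letters AACAAT (in 9.42% of all windows), the T-box letters AGGTGTGA (1.12%) and the FOXH1 letters TGTGGATT (0.72%) stood in 0 of the 9 windows. These matches describe letters in short windows and carry no measurement of binding.

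Values are MAS5 signals, a linear brightness with no unit that is not comparable between probe sets. Changes are differences of mean log2 signal, day 4 minus day 3, each with its standard error (SE). Tests come from a limma fit over 12285 genes with adjusted p-values (Benjamini-Hochberg), and a gene was called at an adjusted p under 0.05. With no detection calls in the file, a signal of 13.5, the 40th percentile of all probe sets, served as the limit below which a gene was not tested. The gene's brightest probe set stands for it, which left 7 of the 8 genes tested.

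Of the 7 tested genes, 2 were called, both lower at day 4, which is 28.6%. Of all genes tested, 22.2% were called, 10.7% lower and 11.5% higher, so the share called among the 7 was near that of all genes. The 3 values of each day did not overlap in 2 of the 7 genes, or 28.6%, both lower at day 4, against 41.4% of all genes in either direction and 20.6% in that of lower values at day 4. The median change of the 7 genes was -0.20, and that of all genes tested was -0.01. The 7 genes split, with 4 changes below 0 and 3 above.

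1 array stood apart in its controls and touches several of the results. On day 4 replicate 1 the ratio of 3′ to 5′ Gapdh signal was 14.0, against 2.43 to 3.19 on the other 5 arrays, and the 5′ Gapdh signal was 484 against 2185 to 3108. The 5′ Gapdh and 5′ Actb signals were also lower on every day 4 array than on any day 3 array. Trimmed mean signals were alike on all arrays (160.4 to 162.1). The part of RNA quality in the day differences was not tested, but the changes of the 7 tested genes and the counts of the other lists are also given without day 4 replicate 1. All 39 called genes of those other lists were called in the same direction without it. The presomitic markers Msgn1 and Tbx6 were above the limit on both days, Msgn1 at 74.6 ± 15.0 and 33.2 ± 7.06 (mean ± SD, n = 3 arrays per day, here and below) and Tbx6 at 132 ± 6.99 and 124 ± 29.5. In such pooled RNA, fewer cells of a type and less RNA per cell cannot be told apart.

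**Figure D1:**
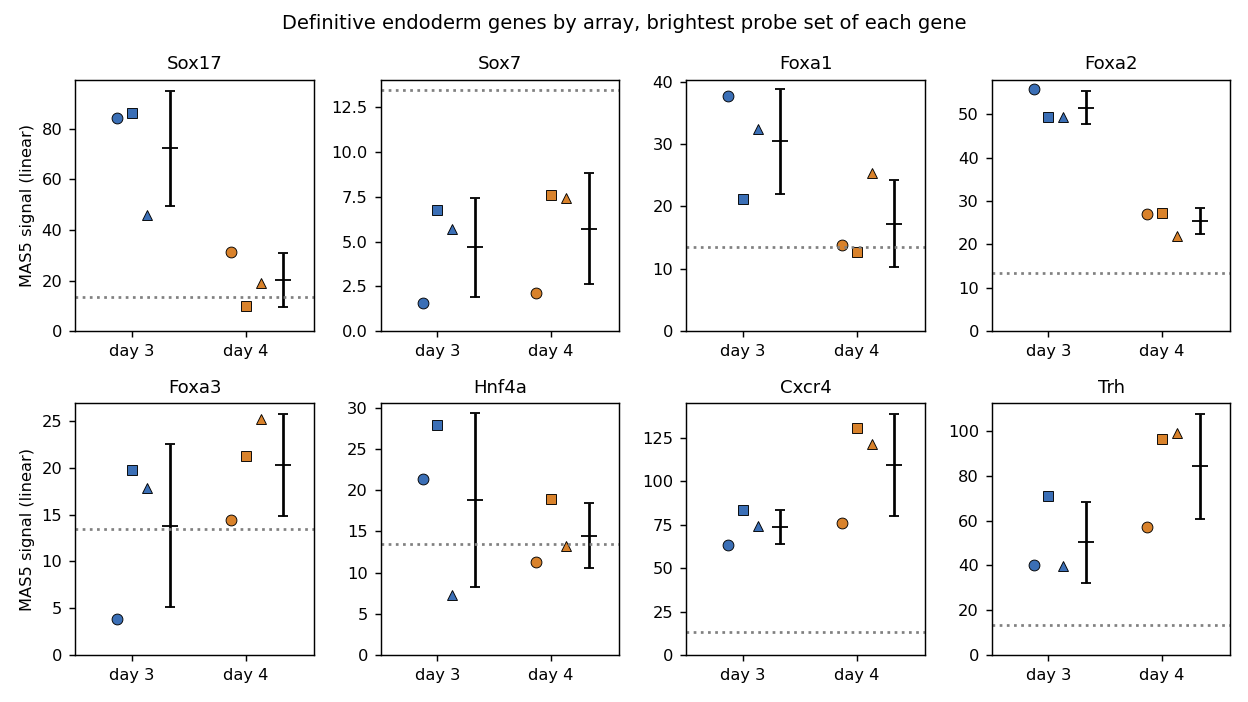
MAS5 signal (linear scale from 0, own axis per gene) of the brightest probe set of each of the 8 genes on the 3 day 3 arrays (blue) and the 3 day 4 arrays (orange). Circle, square and triangle are replicates 1, 2 and 3, the bar beside each group is the mean ± SD and the dotted line is the limit of 13.5. Sox17 and Foxa2 are the genes whose days do not overlap, and every Sox7 value lies under the line.

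Sox17, the SoxF factor that drives endoderm differentiation, showed the largest change of the 8 genes when each is read by its brightest probe set, here 1429177_x_at. At day 3 the arrays read 84.4, 86.4 and 45.9, and at day 4 they read 31.4, 10.0 and 19.1. Every day 3 array lay above every day 4 array, and the lowest day 4 value fell under the limit. The change was -1.93 ± 0.41 (limma, adjusted p = 0.00956), the 38th lowest of the 12285 genes tested, counted from the largest fall. Leaving out day 4 replicate 1 made the fall larger, at -2.33 (adjusted p = 0.000871), while leaving out day 3 replicate 1 ended the call at -1.79 (adjusted p = 0.0512).

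The size of the Sox17 change differed between its probe sets. The other Sox17 probe set, 1421657_a_at, gave 17.1, 21.9 and 19.7 at day 3 and 13.9, 13.4 and 16.2 at day 4. The days again did not overlap, but the values lay close to the limit and the change was -0.43 ± 0.32, which did not pass when every probe set was tested on its own (limma, adjusted p = 0.396). In that fit 18.2% of 22276 probe sets were called, and the brighter Sox17 probe set was among them (adjusted p = 0.0137). With the mean of both probe sets the gene was called at -1.18 ± 0.30 (adjusted p = 0.0292). The suffix _x_at marks probe sets whose probes may also match other transcripts, and _a_at those that match several transcripts of 1 gene.

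Sox7, the SoxF factor of extraembryonic endoderm and of vessels, was not tested. Its brighter probe set gave 1.57, 6.75 and 5.71 at day 3 and 2.15, 7.63 and 7.42 at day 4. The days overlapped, with the lowest value of each day on replicate 1 (exact 2-sided permutation p = 0.5). The other probe set gave 1.74, 1.16 and 1.29 at day 3 and 7.11, 2.47 and 10.9 at day 4, all under the limit, so no fold is given although the days did not overlap (exact permutation p = 0.1, which 6 arrays in 2 groups of 3 cannot go below). Sox18, the third SoxF gene, was under the limit as a mean on both days, at 11.6 ± 7.83 and 8.09 ± 5.29.

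**Figure D2:**
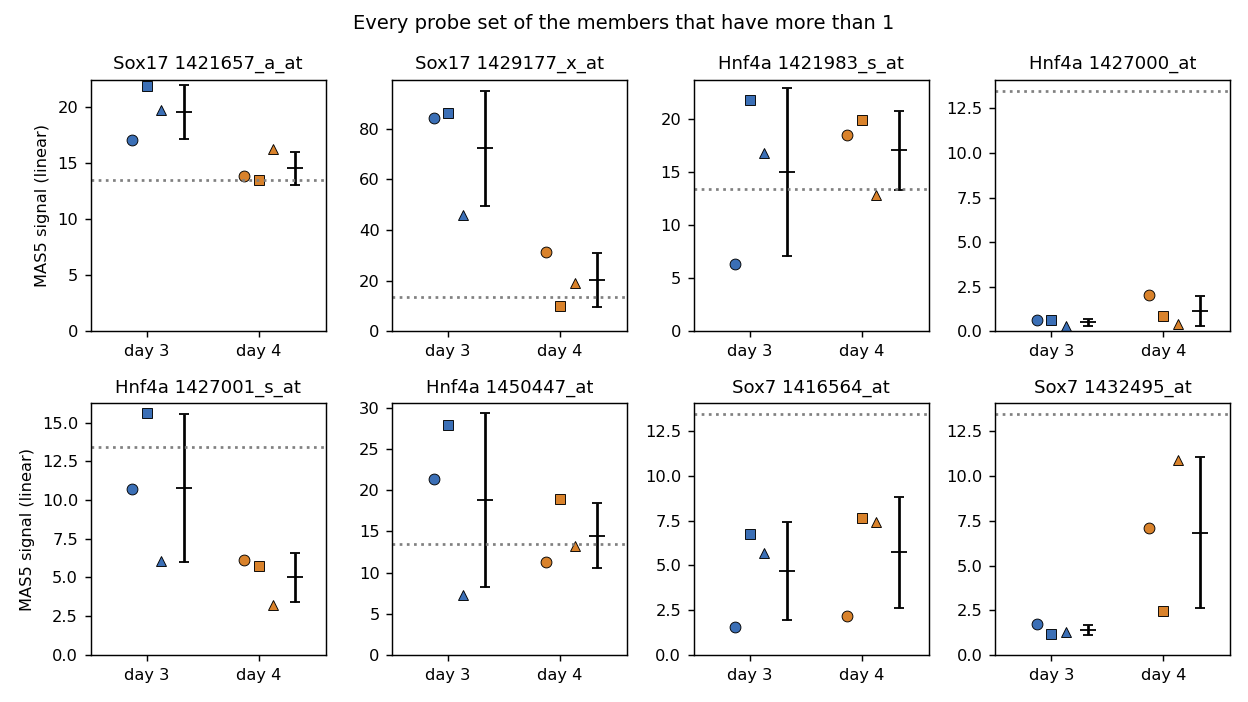
MAS5 signal (linear scale from 0, own axis per panel) of all 8 probe sets of Sox17, Hnf4a and Sox7, with day 3 in blue, day 4 in orange, the bar as mean ± SD over 3 arrays and the dotted line at the limit of 13.5. Both Sox17 probe sets are lower on every day 4 array, by -1.93 and -0.43 on the log2 scale, while the Hnf4a probe sets sit near or under the line and do not move one way.

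Foxa2, the forkhead factor needed for foregut endoderm, node and notochord, gave the most even fall. The day 3 arrays gave 55.8, 49.3 and 49.3, and the day 4 arrays 27.1, 27.3 and 22.0. The 2 groups were far apart relative to their spread (51.5 ± 3.79 and 25.5 ± 3.01), and every array lay above the limit. The signals were modest, as the day 4 values lay near the median of all probe sets on those arrays (25.7 to 26.1). The change was -1.02 ± 0.21 (limma, adjusted p = 0.00747). Leaving out any 1 array gave changes of -1.07 to -0.92, and the call held in all 6 of these fits, with -1.07 without day 4 replicate 1 (adjusted p = 0.00595).

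Foxa1, which acts beside Foxa2 in gut, lung and liver, had lower values at day 4 but was not called. Day 3 arrays read 37.7, 21.2 and 32.5, and day 4 arrays 13.8, 12.7 and 25.3. Replicate 3 of day 4 was above replicate 2 of day 3, so the days overlapped. The change was -0.85 ± 0.37, with an unadjusted 95% interval of -1.67 to -0.03 (limma, adjusted p = 0.128). No fit that left out 1 array called it (changes of -1.16 to -0.66, with -0.73 without day 4 replicate 1).

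Foxa3, the FoxA gene of liver and gut, lay close to the limit. It read 3.85, 19.8 and 17.9 on the day 3 arrays and 14.4, 21.3 and 25.2 on those of day 4. The low day 3 replicate 1 set most of the difference: the change was 0.84 ± 0.62 with all arrays and 0.07 without that array (limma, adjusted p = 0.368 and 0.913). Without day 4 replicate 1 it was 1.06, also not called (adjusted p = 0.264). The interval with all arrays, -0.55 to 2.23, spans a fall as well as a rise. The difference between the FoxA genes in their change was not tested.

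Hnf4a, which directs liver and gut epithelium and is expressed earlier in visceral endoderm, was at the limit. The brightest of its 4 probe sets, 1450447_at, gave 21.4, 27.9 and 7.21 at day 3 and 11.3, 18.9 and 13.2 at day 4. The day 4 values lay inside the day 3 range, and 3 of the 6 arrays were above the limit. The change was -0.20 ± 0.53 (limma, adjusted p = 0.821), and its sign turned without day 3 replicate 2 (0.70). Without day 4 replicate 1 it was -0.04. The probe set 1421983_s_at, with means of 15.0 ± 7.90 and 17.1 ± 3.75, changed by 0.34 ± 0.51 (adjusted p = 0.689). The other 2 were under the limit as means on both days, 1427001_s_at at 10.8 ± 4.79 and 5.02 ± 1.59 and 1427000_at at 0.509 ± 0.200 and 1.11 ± 0.843.

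Cxcr4, the Cxcl12 receptor, was above the limit on every array. Day 3 gave 63.6, 83.4 and 74.2, and day 4 gave 75.8, 131 and 121. Replicates 2 and 3 of day 4 lay above every day 3 array, and replicate 1 of day 4 lay within the day 3 range. The change was 0.54 ± 0.22, with an unadjusted 95% interval of 0.05 to 1.02, and was not called (limma, adjusted p = 0.106). Without day 4 replicate 1 it was 0.78 ± 0.16 and was called (adjusted p = 0.00434). Without any other single array it was 0.39 to 0.63 and was not called.

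Trh, the hormone precursor gene, followed the same arrays. The signals of day 3 were 40.03, 71.2 and 39.7, and those of day 4 were 57.4, 96.6 and 99.0. As for Cxcr4, replicates 2 and 3 of day 4 lay above every day 3 array, replicate 1 was the lowest of day 4 and replicate 2 the highest of day 3. The change was 0.76 ± 0.29, with an unadjusted 95% interval of 0.12 to 1.40 (limma, adjusted p = 0.0862). It was called at 1.02 ± 0.25 without day 4 replicate 1 (adjusted p = 0.0120) and at 1.04 ± 0.27 without day 3 replicate 2 (adjusted p = 0.0363). Without day 4 replicate 1, 4 of the 7 tested genes (57.1%) were thus called, 2 higher (Cxcr4 and Trh) and 2 lower (Sox17 and Foxa2). In that fit 28.7% of 12292 genes were called, 14.1% higher and 14.5% lower, so calls were also more frequent among all genes than with all 6 arrays.

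**Figure D3:**
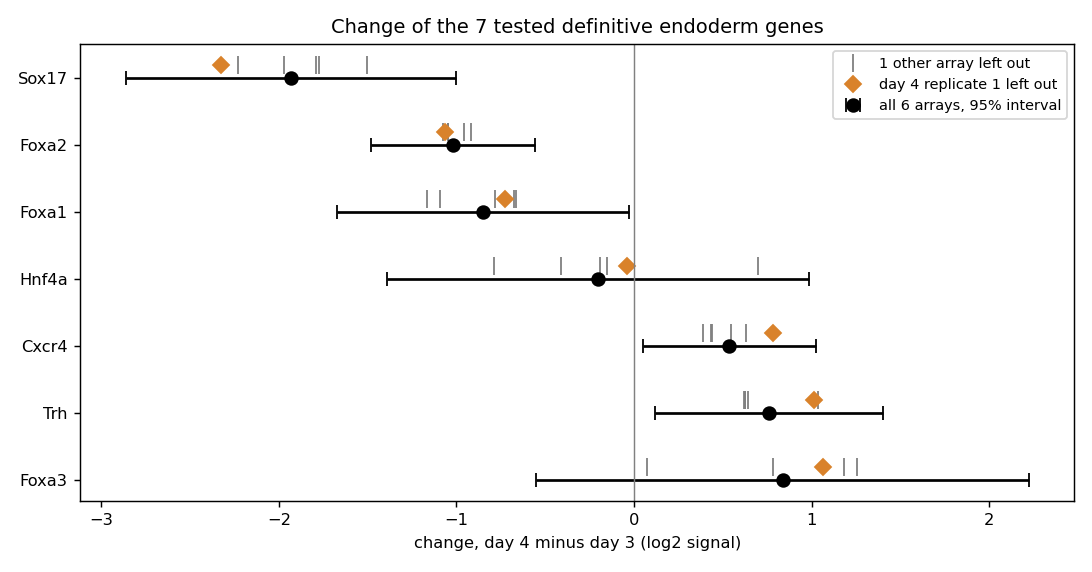
Change of the 7 tested genes, day 4 minus day 3 in log2 signal, with the fit to all 6 arrays as black points and bars for its unadjusted 95% interval. Diamonds give the change without day 4 replicate 1 and grey ticks the change without each other array. Foxa2 stays between -1.07 and -0.92, Cxcr4 and Trh move to 0.78 and 1.02 without day 4 replicate 1, and Hnf4a crosses 0.

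By Pearson r of log2 signal over the 6 arrays, the tested genes most like Sox17 were Ppp1r16a (0.999), Akip1 (0.998) and Slfn2 (0.995). Those most like Foxa2 were Mgll (0.9995), Wnt4 (0.999) and Ciapin1 (0.998). Those most like Trh were Six4 (0.994), Gm4274 (0.986) and Rsbn1 (0.984), and those most like Cxcr4 were Cwf19l2 (0.990), Nsun6 (0.989) and Mypop (0.988). The lowest leading values were those of Hnf4a, with Msl3l2 at 0.974. The 6 points share the day difference, and the genes were picked as the highest of 12285, so the values are a description.

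Genes that act before Sox17 and Foxa2 in the Nodal pathway, with the streak factors it induces, were all above the limit and tested. Of the 16, 7 were called lower and 2 higher (7 and 3 without day 4 replicate 1), with a median change of -0.11. Nodal itself, the ligand, fell from 1289 ± 67.6 to 479 ± 64.2, a change of -1.43 ± 0.11 (limma, adjusted p = 4.30e-05). Its targets Lefty1, Lefty2, Mixl1 and Gsc were among the lower genes. So were the coreceptor gene Tdgf1 (-0.24 ± 0.05, limma, adjusted p = 0.00661) and the signal transducer Smad2 (-0.39 ± 0.11, adjusted p = 0.0274). Smad2 was called in 2 of the 6 fits without 1 array. Eomes, the T-box factor that starts the endoderm programme, was at 2741 ± 50.2 and 2583 ± 268 and was not called (adjusted p = 0.463), nor was the LIM homeobox gene Lhx1, at 1527 ± 66.2 and 1510 ± 125. Smad3, a signal transducer, rose by 0.59 ± 0.12 (adjusted p = 0.00810), and the activin receptor gene Acvr1b by 0.51 ± 0.15 (adjusted p = 0.0360), a call lost in 4 of the 6 fits without 1 array (each day 3 replicate or day 4 replicate 3).

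Other genes of definitive endoderm were lower in 9 of 13 tested and higher in 1 (median change -0.97). Both counts were the same without day 4 replicate 1. Of all genes tested, 10.7% were called lower and 11.5% higher. The list was chosen with earlier results of these data known. The list's lower count fell to 6 without day 3 replicate 3, with the mean over probe sets, and without suffixed probe sets (_x_at, _s_at or _a_at). Its range over the alternatives given below was 6 to 11, where the 11 counts probe sets, each tested on its own, and not genes. Among the 9, Ripk4 was called in 2 and Tmprss2 in 3 of the 6 fits without 1 array. Fgf17 lost its call without day 3 replicate 3. Several of the 9 are general epithelial genes that the epiblast also expresses: the keratin Krt19 (-1.70 ± 0.11), the cadherin Cdh1 (-1.44 ± 0.13), the adhesion gene Epcam (-1.22 ± 0.08) and the claudin Cldn6 (-1.25 ± 0.25). The GATA factors of endoderm and heart split. Gata6 gave 365, 406 and 410 at day 3 and 228, 192 and 186 at day 4, a change of -0.97 ± 0.12 (limma, adjusted p = 0.000535). Gata4 gave 82.9, 75.4 and 91.6 at day 3 and 94.2, 175 and 184 at day 4, so that day 4 replicate 1 was again the lowest of its day. Its change of 0.80 ± 0.24 was called (adjusted p = 0.0392), and the call held only without day 4 replicate 1 among the 6 fits that left out an array. Cer1, a secreted Nodal and BMP inhibitor of anterior endoderm, was at 25.3 ± 8.65 and 32.3 ± 15.5. Hhex, a homeobox gene of foregut and liver, was at 109 ± 20.2 and 98.6 ± 13.3. Neither was called (limma, adjusted p = 0.600 and 0.630). Prdm1, the remaining tested gene of the list, changed by -0.54 ± 0.37 and was not called (adjusted p = 0.341).

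Markers of cell types that share the 8 genes were read on the same arrays. Of 19 visceral endoderm genes with a probe set, 7 were under the limit on all 6 arrays, among them Ttr and Afp, 2 of its defining genes, at 4.29 ± 1.20 and 3.12 ± 2.22 at day 3 and 7.17 ± 2.54 and 1.87 ± 1.21 at day 4. Of the 9 tested, 1 was higher and 1 lower (1 and 2 without day 4 replicate 1). Summed over the 19 genes the signal was 2292 to 2357 at day 3 and 2491 to 2748 at day 4. Such sums, here and below, rest mainly on the brightest probe sets and do not measure a tissue. In this one these were Bmp2 (1218 ± 35.0 and 1626 ± 155) and Rhox5 (612 ± 11.6 and 631 ± 70.9). The gene called higher was Bmp2, which is not limited to this tissue (0.41 ± 0.08). The gene called lower was Apob, at 34.4 ± 10.7 and 14.1 ± 4.68. Its change was -1.31 ± 0.37 (limma, adjusted p = 0.0311), called in 3 of the 6 fits without 1 array. Cited1 changed by -2.44 ± 0.88 and was not called (adjusted p = 0.0766). Of the 9 tested changes of this list, 5 were above 0. All 9 parietal endoderm genes were tested, 3 were higher and 0 lower (3 and 1 without day 4 replicate 1), led by Plat (1.50 ± 0.17), the laminin gene Lama1 (0.92 ± 0.12) and Sparc (0.59 ± 0.09). Their summed signal was 5769 to 6139 at day 3 and 6575 to 8427 at day 4. On day 4 replicate 1, Col4a1 read 2081 against 1445 and 1420 on replicates 2 and 3, and Lamc1 376 against 80.3 and 93.9. Many of the parietal endoderm genes encode matrix proteins that mesoderm also makes.

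Genes of later gut, liver and pancreas were mostly under the limit. Of 11 with a probe set, 3 were tested, and the pancreas factor Pdx1 was under the limit on all arrays. Isl1 and Tbx3, which heart and limb mesoderm also express, were called higher (1.16 ± 0.10 and 0.60 ± 0.10). Cdx2, the remaining tested gene, was at 316 ± 27.0 and 260 ± 37.6. It changed by -0.29 ± 0.13 and was not called (limma, adjusted p = 0.142). The summed signal was 756 to 861 at day 3 and 1131 to 1151 at day 4. Of the node and notochord, where Foxa2 is also expressed, Shh (31.3 ± 8.41 and 33.6 ± 5.45) and Bicc1 (91.1 ± 3.13 and 95.1 ± 6.23) were tested and neither was called. The ciliary factor Foxj1 was under the limit on all arrays, and the list's summed signal was 160 to 178 and 154 to 189. T and Noto were not analysed here.

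The endothelium and blood list, relevant to the SoxF genes, held 10 tested genes, of which 1 was higher and 2 lower (1 and 3 without day 4 replicate 1). Kdr, a VEGF receptor that early mesoderm also expresses, rose by 1.19 ± 0.14, and the transcription factor genes Etv2 and Lmo2 fell by 0.94 ± 0.15 and 0.54 ± 0.12 (limma, adjusted p = 0.000522, 0.00196 and 0.0107). Lmo2 missed the threshold without day 3 replicate 2. Pecam1, Tek, Tie1, Erg and Fli1, which define endothelium, were under the limit on all 6 arrays, and Cdh5 was at 19.3 ± 0.879 and 11.8 ± 4.30 without being called. The list's summed signal was 1156 to 1200 at day 3 and 1100 to 1436 at day 4. The part of any of these cell types in the Sox17 and Foxa2 falls was not tested.

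Among partners of Cxcr4, Ackr3, the scavenging receptor that takes up the same ligand, gave 65.3, 50.7 and 52.5 at day 3 and 171, 151 and 117 at day 4. Its change of 1.37 ± 0.18 was called (limma, adjusted p = 0.000808), with every day 4 array above every day 3 array, and day 4 replicate 1 was its highest. The ligand Cxcl12 was at 23.5 ± 3.45 and 32.4 ± 4.59 and was not called (adjusted p = 0.220). The receptor kinase Grk6 fell by 0.38 ± 0.07 and the G protein gene Gnai2 rose by 0.26 ± 0.08 (adjusted p = 0.00511 and 0.0485), the latter called in 1 of the 6 fits without 1 array (that without day 4 replicate 1). In all, 2 of 6 tested genes were higher and 1 lower, also without day 4 replicate 1. Of the genes that process or receive the Trh peptide, 3 of 7 with a probe set were tested, the amidating enzyme Pam and the proteases Pcsk1 and Cpe, and 0 were called. The receptor gene Trhr was under the limit on all arrays, at 1.56 ± 0.731 and 2.37 ± 2.68.

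Against this, the presomitic and somite list had 6 of 13 tested genes higher and 1, Msgn1, lower, also without day 4 replicate 1 (median change 1.08). The 6 were Aldh1a2, Mesp2, Rspo3 and the somite transcription factor genes Foxc1, Meox1 and Pax3, while Tbx6 was not called. The gate gene Msgn1 and the 2 called endoderm genes were thus lower on the same arrays. Msgn1 changed by -1.17 ± 0.24, Foxa2 by -1.02 ± 0.21 and Sox17 by -1.93 ± 0.41. Differences between these 3 changes were not tested.

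**Figure D4:**
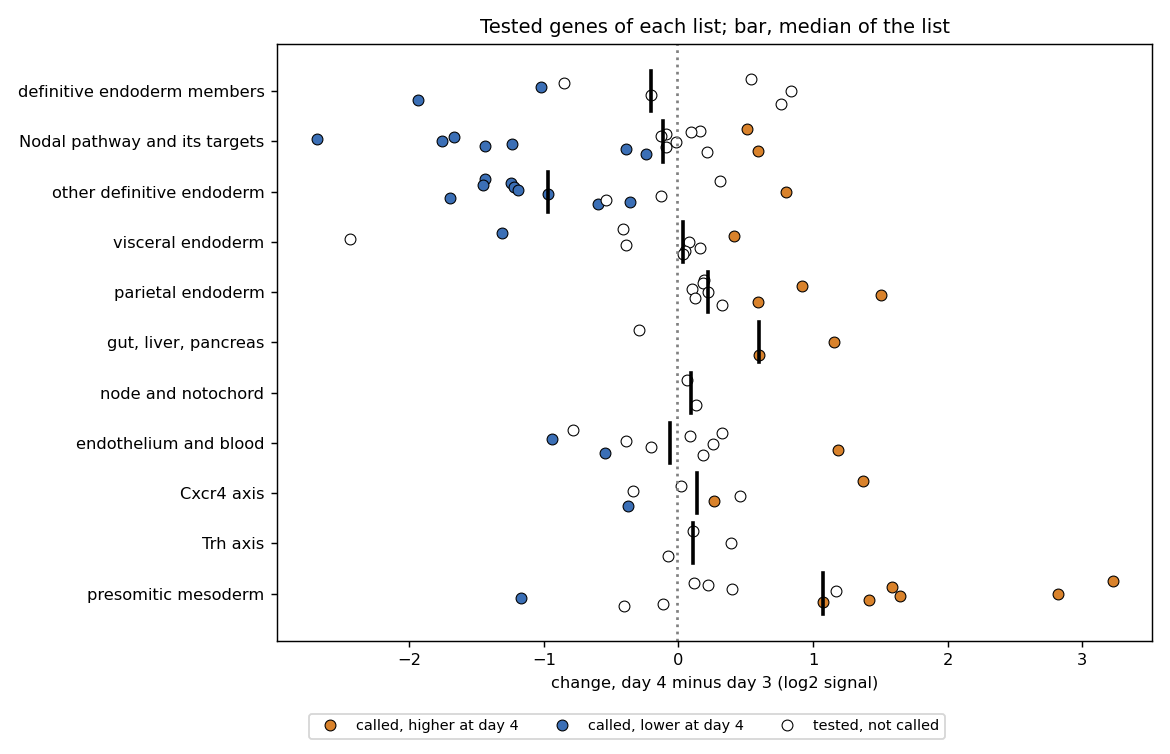
Change, day 4 minus day 3 in log2 signal, of every tested gene of the 8 members and of 10 further lists, with orange for genes called higher, blue for genes called lower and white for genes not called. Black bars are list medians and the dotted line is the median of all genes tested (-0.01). The members spread on both sides of 0, while other definitive endoderm genes lie mostly below it (median -0.97). Genes of the presomitic and somite list (labelled presomitic mesoderm) lie mostly above it (median 1.08), with Msgn1 called lower.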

How the data were processed

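Per the labels' protocols, total RNA of sorted cells was taken with Trizol or a column kit (which for which sample is not stated), amplified in 2 rounds, biotin-labelled and hybridised. The authors deposited MAS5 signal intensity on a linear scale (MAS5 per the submitters' processing notes), and the sources used here give neither its version, nor how it was scaled, nor present or absent calls. The log of a dim MAS5 signal is imprecise, and double amplification favours 3′ ends. The number of arrays, 3 a day, limits the precision.

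Of 45101 probe sets, 34958 had 1 symbol, 932 several (unnamed here) and 9211 none listed. Matching by Entrez identifier to RefSeq changed 0 symbols. In R 4.3.3 with limma 3.58.1, log2 signal was fitted with day as the only term (lmFit, eBayes with trend, 2-sided), on each gene's probe set of highest mean log2, above the 40th percentile. In simulated arrays with the spreads of these 12285 genes, 68 of 100 changes of size 1 (log2) and 86 of 100 of size 2 were recovered, with 7 false calls. No other genes were changed there, a far smaller share than the 22.2% called in the data, so these rates need not hold for the data. Alternatives changed the offset, normalization, filter, probe set rule, variance model, weights, replicate block, threshold and arrays. Members and lists were chosen with earlier results of these data known. Named were all 8 members, up to 4 genes per list with the smallest p, set defining genes, and genes whose pattern was most like a member's. Other genes named in a list, among them Smad3, Acvr1b, Lhx1, Bicc1 and Cldn6, were chosen after their values were seen. Figures were drawn with matplotlib 3.10.9 in Python 3.11.15.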

Additional observations from a re-analysis of the deposited data

How the results depend on the processing

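The Foxa2 call held under all 16 alternatives that tested it, and that of Sox17 under 14 of 15, the exception being the fit without day 3 replicate 1. With a filter at the 60th percentile neither was tested, so the count of members called was 0, with 0 lower. Without suffixed probe sets Sox17 had none left and the count was 1, with 1 lower. With array quality weights, 4 members were called, 2 of them higher, with changes of 0.70 for Cxcr4 and 0.93 for Trh, Hnf4a turned to 0.20, and 4312 of all genes were called against 2729. Over all tested genes, same-numbered replicates of the 2 days hardly deviated together (correlations of 0.07, 0.01 and -0.001). With 3 arrays a day this cannot settle whether the numbers pair the samples, and the labels do not say. With a replicate block 4 members were called, 2 of them higher (Cxcr4 at 0.54, adjusted p = 0.0427, and Trh at 0.76, adjusted p = 0.0368), and 2884 of all genes. At an adjusted threshold of 0.10, 1 member was higher, Trh at 0.76. With the mean over probe sets 1796 of all genes were called. Leaving out 1 array at a time gave 1 to 4 members called, 0 to 2 higher and 1 to 2 lower, 1596 to 3524 of all genes, and changes of -2.33 to -1.50 for Sox17, 0.39 to 0.78 for Cxcr4, 0.62 to 1.04 for Trh and -0.79 to 0.70 for Hnf4a, the last turning without day 3 replicate 2. Of the other lists, counts that moved over 1.5 times were those with a main count of 2 or less. Over the alternatives, the higher calls of the Nodal list ranged from 1 to 5 against 2 and of the gut list from 1 to 5 against 2. Those of the Cxcr4 list ranged from 0 to 2 against 2 and of other definitive endoderm from 0 to 1 against 1. The counts of 5 are of probe sets and not of genes, from the fit of every probe set on its own. The lower calls of the visceral endoderm list ranged from 0 to 2 against 1 and of the endothelial list from 1 to 3 against 2. Those of the Cxcr4 list ranged from 1 to 2 against 1, where the 2 again counts probe sets. Those of the parietal and gut lists ranged from 0 to 1 against 0. Signals near the limit of 13.5, those of Foxa3 (not tested without day 4 replicate 3) and Hnf4a among them, bound what can be said of those genes. The cause of these differences was not tested.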
